A study of Mus musculus with 4 samples.

Results

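The genes described here make fatty acids in the liver and lengthen them: Srebf1, Acly, Me1, Acacb, Fasn, Thrsp, Scd1, Elovl3, Elovl5 and Elovl6. They were chosen by name for their place in this pathway, with earlier results of these data known. Every probe set of the array that names 1 of them alone was taken. That gave 10 of the 18193 genes that have a probe set of their own, with 23 of 45037 probe sets. A filter on low values kept 21 of the 23, and the other 2 both belong to Acly. RNA came from whole livers of C57BL/6 mice 4 weeks after birth, with 1 Affymetrix 3′ expression array per liver, 2 Control livers and 2 Cnot3KO livers. The Cnot3KO mice carried floxed Cnot3 and a Cre recombinase driven by the albumin promoter. It acts in hepatocytes and in hepatoblasts, the fetal cells that give rise to hepatocytes and bile duct cells. Which other cells of these livers keep the gene was not measured here. The labels give the Control mice as wild type, while the methods of the study count as controls mice with floxed Cnot3 but no Cre as well as Cre carriers that keep a normal copy. Which of these each Control liver was, the sex of the mice, and their feeding state and time of day at collection are not given in the sources used here. The protein made from Cnot3 belongs to Ccr4-Not, a complex that trims poly(A) tails, and the comparison asks which mRNAs differ in a liver whose hepatocytes lack it.

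In de novo lipogenesis the liver turns carbon from glucose into fat. Citrate leaves the mitochondrion and is cleaved to acetyl-CoA, a carboxylase makes malonyl-CoA from it, and fatty acid synthase uses malonyl-CoA and NADPH to build palmitate. Membrane-bound elongases and desaturases then lengthen the chain and put double bonds in it. The transcription factors SREBP-1c, which responds to insulin, and ChREBP, which responds to glucose, drive many of these genes, so their mRNAs rise after a meal, fall in fasting and vary through the day.

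Levels below are on the log2 scale of the normalized intensity, and a difference is the mean of Cnot3KO minus the mean of Control with its standard error (SE) and n = 2 livers per group. Each p is from limma and adjusted by the Benjamini-Hochberg method over all 38405 probe sets that passed the filter, and a gene was said to rise or fall where this was under 0.05. Nothing in the labels says more of the replicates than that they are separate livers. Median levels were from 3.09 to 3.14 on the 4 arrays, and the median difference over 16758 genes was 0.00. The number of arrays limits the precision, and the median SE of a difference was 0.19. In whole liver, fewer cells of a type and less RNA per cell cannot be told apart.

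Cnot3 itself was measured by 2 probe sets. The brighter (1435965_at) was at 5.99 and 6.04 in Control and at 5.15 and 5.30 in Cnot3KO, a difference of -0.79 ± 0.16 (limma adjusted p = 0.0372), which lost the call when any 1 array was left out (-0.87 to -0.71, adjusted p = 0.0885 to 0.211). The dimmer (1441465_at) was at 4.71 and 4.51 in Control and at 4.35 and 4.06 in Cnot3KO (-0.40 ± 0.19, adjusted p = 0.218). On both probe sets the Cnot3KO arrays lay below the Control arrays. Whether these probe sets lie in the deleted part of the gene is not given in the sources used here.

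Of the 10 lipogenic genes, each read from its brightest probe set, 4 fell in the Cnot3KO livers: Elovl3, Thrsp, Me1 and Elovl6. Among all genes 4.64% fell, a share not tested against the 10, which were chosen with earlier results known. None of the 10 rose, while 12.2% of all genes did. At an unadjusted p under 0.05 none was higher in limma or by the methods' t-test. Over all 16758 genes 3842 and 2365 were. Scd1 (-2.24) missed the threshold, and Srebf1, Acly, Acacb, Fasn and Elovl5 did not pass. Both Cnot3KO arrays lay below both Control arrays in 5 of the 10 genes (Me1, Thrsp, Scd1, Elovl3 and Elovl6) and in 30.3% of all genes. The median difference of the 10 was -1.34. With single probe sets 7 of 21 fell and none rose, against 4.78% of all probe sets that fell. Of the 21, 18 had a difference below 0.

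Fits without 1 array, here and below, leave 1 liver in a group and so have fewer samples. The share of all genes called in them is not given. The number of the 10 that fell moved in these fits. It was 2 of 10 without Control replicate 1, without Control replicate 2 or without Cnot3KO replicate 1, and 6 of 10 without Cnot3KO replicate 2. Among single probe sets it was 3 of 21 in the former 3 cases and 9 without Cnot3KO replicate 2. Of the genes that fell, Me1 kept its call in all 4 of these fits.

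**Figure D1:**
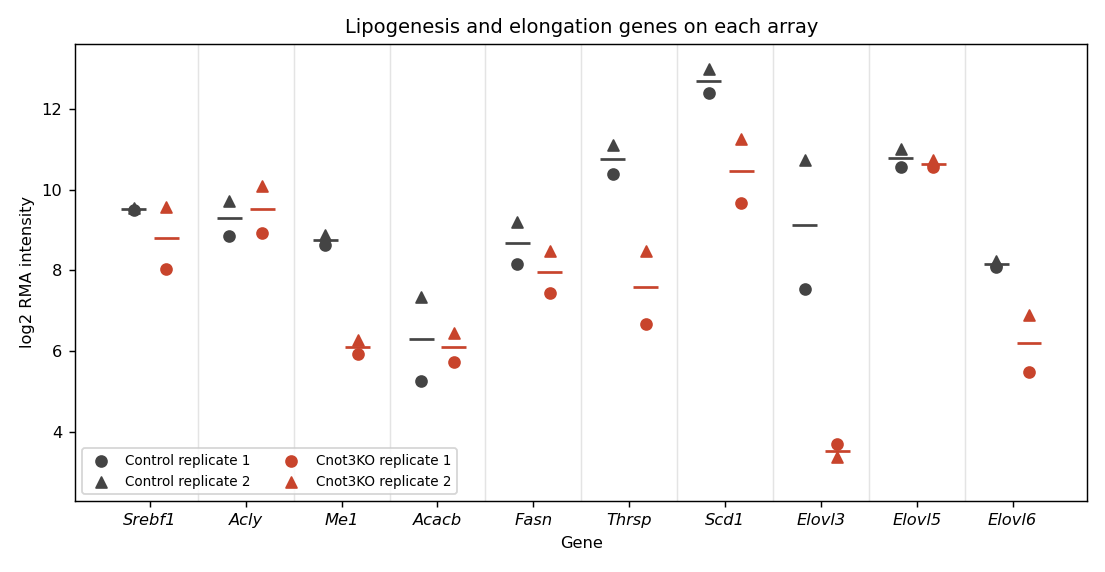
Log2 level (vertical axis) of the brightest probe set of each of the 10 genes, with 1 point per liver, Control and Cnot3KO side by side, and a bar at each group's mean. The Cnot3KO points of Me1, Thrsp, Scd1, Elovl3 and Elovl6 lie below both Control points, and those of the other genes overlap with Control.

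Srebf1 encodes SREBP-1, the transcription factor that insulin uses to switch on lipogenic genes. Its single probe set (1426690_a_at) was at 9.50 and 9.54 in Control and at 8.03 and 9.57 in Cnot3KO. Cnot3KO replicate 2 was level with Control and replicate 1 lay well under it. The difference was -0.72 ± 0.49 with a 95% interval from -1.96 to 0.52 (limma adjusted p = 0.370). It moved to -1.49 without Cnot3KO replicate 2 (adjusted p = 0.0313) and to 0.048 without Cnot3KO replicate 1 (adjusted p = 0.946).

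Acly, ATP citrate lyase, cleaves exported citrate to acetyl-CoA. Its brightest probe set (1451666_at) was at 8.86 and 9.72 in Control and at 8.91 and 10.10 in Cnot3KO (0.22 ± 0.47, 95% interval -0.97 to 1.41, adjusted p = 0.785). The groups overlapped, and in each the replicate 2 liver was higher. A second bright probe set gave -0.07 (adjusted p = 0.924), another 0.22 (adjusted p = 0.857), and a dim one at 2.36 and 2.53 in Control and at 1.84 and 2.00 in Cnot3KO gave -0.52 ± 0.17 (adjusted p = 0.111). The remaining 2, which the filter took out, were not tested, and the signs of the Acly probe sets were therefore mixed.

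Me1, the cytosolic malic enzyme, supplies NADPH for fatty acid synthesis. Its brighter probe set (1430307_a_at) was at 8.62 and 8.88 in Control and at 5.93 and 6.28 in Cnot3KO. The Cnot3KO livers were 6.25-fold lower (-2.64 ± 0.21, 95% interval -3.16 to -2.13, limma adjusted p = 0.00491), and the gap between groups was far wider than that within either. The other Me1 probe set (1416632_at) was at 8.47 and 8.56 in Control and at 6.42 and 6.21 in Cnot3KO, a difference of -2.20 ± 0.17 (adjusted p = 0.00486). Without 1 array the difference of the brighter probe set was from -2.82 to -2.47, with adjusted p from 0.00640 to 0.0351. Both probe sets of Me1 fell.

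Acacb encodes the acetyl-CoA carboxylase at the mitochondrial surface, whose malonyl-CoA restrains fatty acid oxidation. Its brighter probe set (1427052_at) was at 5.27 and 7.34 in Control and at 5.73 and 6.46 in Cnot3KO, so that the Control livers enclosed both Cnot3KO livers. The difference was -0.21 ± 0.68 (95% interval -1.93 to 1.51, adjusted p = 0.858), and it was 0.82 without Control replicate 2 and -1.25 without Control replicate 1. A dim second probe set gave -0.20 ± 0.18 (adjusted p = 0.510).

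Fasn, fatty acid synthase, was measured by 1 probe set (1423828_at), at 8.16 and 9.20 in Control and at 7.43 and 8.49 in Cnot3KO. In each group the replicate 2 liver was higher, and Cnot3KO replicate 2 lay above Control replicate 1. The difference was -0.72 ± 0.48 (95% interval -1.92 to 0.48, limma adjusted p = 0.358). It was below 0 without any 1 array (-1.25 to -0.19) and passed in none of the alternative analyses that were run.

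Thrsp, also called Spot 14, is a nuclear and cytosolic protein that promotes lipogenesis and is induced by thyroid hormone and carbohydrate. Its brightest probe set (1424737_at) was at 10.39 and 11.11 in Control and at 6.67 and 8.48 in Cnot3KO. Both Cnot3KO livers lay under both Control livers, although they stood 1.81 apart from each other. The fall was 9.03-fold (-3.17 ± 0.61, 95% interval -4.72 to -1.63, limma adjusted p = 0.0310). Left without Control replicate 1, Thrsp differed by -3.53 and no longer passed (adjusted p = 0.0949), and the same held without Control replicate 2 (-2.82, adjusted p = 0.115). A second probe set was at 8.69 and 9.87 in Control and at 5.20 and 7.05 in Cnot3KO (-3.16 ± 0.68, adjusted p = 0.0416). A dimmer one was at 5.15 and 5.03 in Control and at 4.30 and 4.15 in Cnot3KO (-0.86 ± 0.17, adjusted p = 0.0309). All 3 Thrsp probe sets fell.

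Scd1, the main stearoyl-CoA desaturase of liver, puts the first double bond into saturated chains. Its brighter probe set (1415964_at) was at 12.39 and 12.98 in Control and at 9.66 and 11.24 in Cnot3KO, with no overlap. The difference was -2.24 ± 0.54, or 4.72-fold lower, with a 95% interval from -3.59 to -0.89 before adjustment and an adjusted p of 0.0535. It passed without Cnot3KO replicate 2 (-3.03, adjusted p = 0.00829), but not without Cnot3KO replicate 1 (-1.45, adjusted p = 0.0743). Leaving out a Control liver gave -2.53 (replicate 1, adjusted p = 0.128) and -1.94 (replicate 2, adjusted p = 0.171). The other Scd1 probe set (1415965_at) gave another picture, at 7.20 and 8.67 in Control and at 7.03 and 8.67 in Cnot3KO (-0.09 ± 0.69, adjusted p = 0.944). The difference between these 2 probe sets was not tested.

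**Figure D2:**
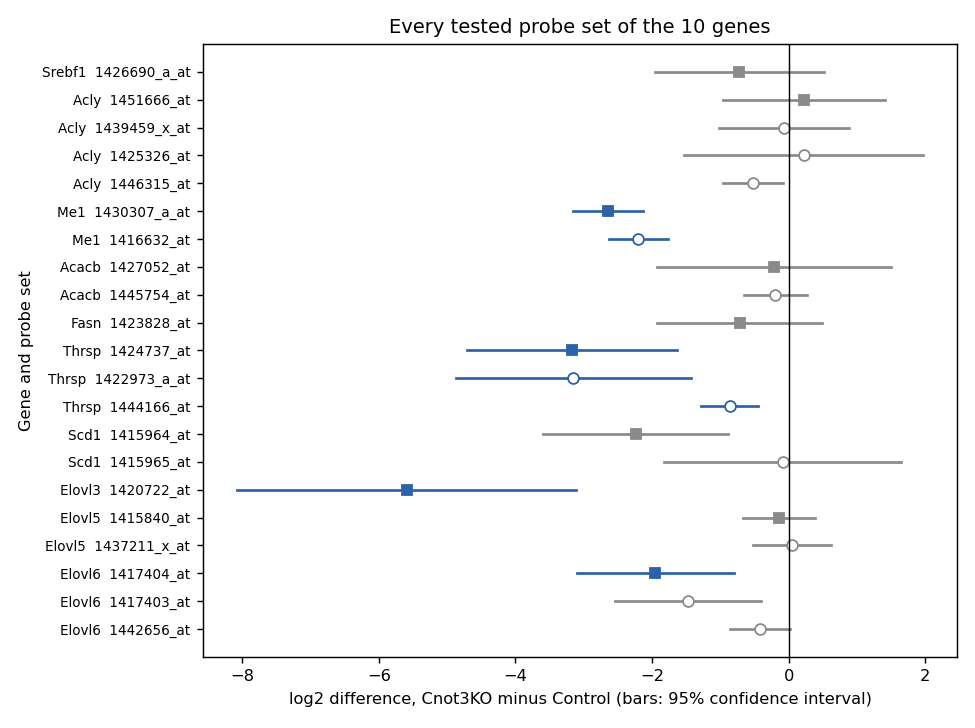
Difference in log2 level, Cnot3KO minus Control (horizontal axis), for each of the 21 probe sets of the 10 genes that passed the filter, with bars for the 95% interval from limma blue for the 7 that fell, filled squares for the brightest probe set of a gene and open circles for the others. The probe sets of Me1 and those of Thrsp all lie below 0, whereas the Scd1 pair lies at -2.24 and -0.09.

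Elovl3 elongates saturated and monounsaturated very long chains, and in mouse liver it is known to be higher in males and to vary with time of day. Its single probe set (1420722_at) was at 7.54 and 10.72 in Control and at 3.71 and 3.37 in Cnot3KO. The Control livers stood 3.18 apart, and both were far above the Cnot3KO livers, which lay near the median of their arrays (3.09 on each). Elovl3 had the largest difference of the 10 genes, -5.59 ± 0.99 (95% interval -8.07 to -3.11, limma adjusted p = 0.0250). No fold is given, since without detection calls it is not known whether the Cnot3KO values lie above background. The size of the difference depended on which Control array was kept, from -7.18 to -4.00 with 1 array left out, and the call was lost without Cnot3KO replicate 1 (-5.76, adjusted p = 0.0510).

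Elovl6 lengthens palmitate to stearate. Its brightest probe set (1417404_at) was at 8.08 and 8.22 in Control and at 5.50 and 6.90 in Cnot3KO. The Control livers lay close together, and the Cnot3KO livers lay 1.40 apart and below them. The fall was 3.87-fold (-1.95 ± 0.46, 95% interval -3.10 to -0.81) and barely passed, with a limma adjusted p of 0.04998. It did not pass without Control replicate 1 (-2.02, adjusted p = 0.149), Control replicate 2 (-1.88, adjusted p = 0.150) or Cnot3KO replicate 1 (-1.25, adjusted p = 0.0605). A second probe set was at 6.79 and 7.28 in Control and at 4.95 and 6.17 in Cnot3KO (-1.47 ± 0.43, adjusted p = 0.0830), and a dim one gave -0.42 ± 0.18 (adjusted p = 0.181).

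Elovl5 elongates polyunsaturated chains. Its brighter probe set (1415840_at) was at 10.56 and 11.00 in Control and at 10.55 and 10.73 in Cnot3KO, so the groups overlapped. The difference was -0.14 ± 0.21 with a 95% interval from -0.67 to 0.39 (adjusted p = 0.686), and a second probe set gave 0.05 ± 0.23 (adjusted p = 0.906).

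The sequence before the start of transcription is shown for a pair of genes that fell and a pair that did not pass, to set their motifs beside their differences. RefSeq windows on GRCm38.p6 were found for 8 of the 10 genes, and Scd1 and Elovl3 have none here. Each of the following is the 250 bases before the start, on the minus strand: Thrsp at chr7:97417551-97417800, Me1 at chr9:86695915-86696164, Fasn at chr11:120824548-120824797 and Acly at chr11:100528001-100528250. Capitals mark CCAAT boxes (CCAAT or its reverse ATTGG) in Thrsp and Fasn and GC boxes (GGGCGG or its reverse CCGCCC) in Me1 and Acly.
Thrsp: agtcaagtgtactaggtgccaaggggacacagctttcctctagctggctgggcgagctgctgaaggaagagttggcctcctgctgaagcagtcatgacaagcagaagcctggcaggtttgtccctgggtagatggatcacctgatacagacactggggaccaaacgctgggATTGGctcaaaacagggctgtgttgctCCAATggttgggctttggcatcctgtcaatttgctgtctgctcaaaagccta
Fasn: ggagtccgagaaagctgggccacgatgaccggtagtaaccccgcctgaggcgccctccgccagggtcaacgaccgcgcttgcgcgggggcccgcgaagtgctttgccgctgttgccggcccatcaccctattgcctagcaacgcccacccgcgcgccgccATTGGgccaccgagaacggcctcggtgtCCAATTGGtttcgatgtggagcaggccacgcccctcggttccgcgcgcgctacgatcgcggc
Me1: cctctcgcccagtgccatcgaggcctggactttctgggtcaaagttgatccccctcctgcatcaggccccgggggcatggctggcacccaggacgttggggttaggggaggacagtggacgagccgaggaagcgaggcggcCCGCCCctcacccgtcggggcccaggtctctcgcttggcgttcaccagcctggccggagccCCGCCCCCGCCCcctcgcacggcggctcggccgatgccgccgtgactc
Acly: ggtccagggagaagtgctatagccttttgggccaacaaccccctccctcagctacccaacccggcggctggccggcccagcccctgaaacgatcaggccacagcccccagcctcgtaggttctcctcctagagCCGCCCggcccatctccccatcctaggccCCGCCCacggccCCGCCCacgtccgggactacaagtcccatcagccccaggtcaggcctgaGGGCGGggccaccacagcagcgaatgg

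The Thrsp window holds 2 CCAAT boxes, where the gene fell 9.03-fold, and the Fasn window holds 3, where the difference of -0.72 did not pass. In Fasn a pair of these overlaps, as CCAATTGG reads CCAAT on both strands. The Me1 window printed here holds 3 GC boxes and no CCAAT box, beside a 6.25-fold fall. Me1 has a second window, at chr9:86687278-86687527 on the minus strand, which holds 1 CCAAT box and no GC box. The Acly window holds 4 GC boxes, beside a difference of 0.22. Over all 32851 windows of this length 33.8% hold CCAAT and 32.7% hold GGGCGG on either strand. The E-box CACGTG (6.02% of windows) was found once among the 8 genes, in Elovl5, and the sterol element core CACCCCAC (2.58% of windows) in none. TATAAA (12.4% of windows) was found in Acacb, and the Elovl6 window holds none of the 5 motifs. A match is only a string of letters, and its absence says only that it is not in this window.

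The livers of a group also stood apart from each other in these genes. In Control replicate 2 was above replicate 1 in all 10 genes, and in Cnot3KO in 9 of 10, with Elovl3 the exception. The gap went this way in both groups in 9 of the 10, against 28.9% of all genes. The median size of the gap was 0.65 in Control and 1.12 in Cnot3KO over the 10 genes, and 0.24 and 0.19 over all genes. A gap over 1, which is over 2-fold, was found for 3 of 10 genes in Control and 6 of 10 in Cnot3KO, against 3.31% and 2.32% of all genes. In 5 of the 10 the larger gap within a group exceeded the difference between groups.

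Clock genes differed between livers of 1 group as well. Their median gap in size was 2.41 in Control and 0.87 in Cnot3KO over 16 genes. Dbp, whose mRNA cycles strongly each day, was at 10.37 and 3.64 in Control and at 7.41 and 5.49 in Cnot3KO. Arntl, which peaks at the opposite time, was at 2.40 and 7.24 in Control and at 5.02 and 6.27 in Cnot3KO. Within each group replicate 1 had the higher Dbp and replicate 2 the higher Arntl, and the lipogenic genes were mostly higher in replicate 2. Between groups none of the 16 clock genes passed in limma on its brightest probe set. At an unadjusted p under 0.05, 2 were lower in limma, and the methods' t-test called 0. Over all 16758 genes 2079 and 1574 were lower. Dimmer probe sets of Clock (1 of 4) and Hlf (1 of 2) fell. The part of the time of day in the lipogenic differences was not tested.

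**Figure D3:**
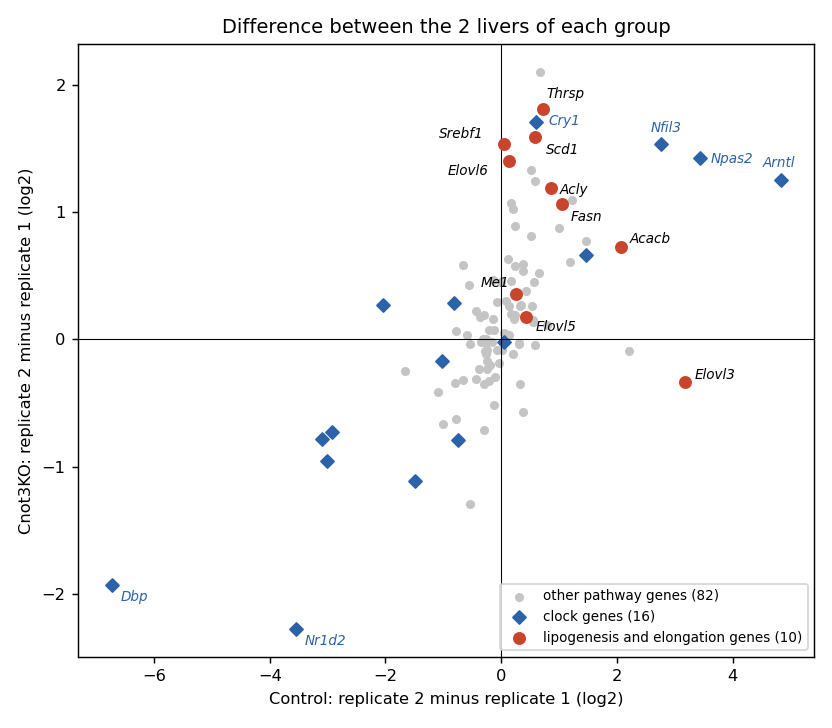
Difference between the livers of a group, replicate 2 minus replicate 1 on the log2 scale, in Control (horizontal axis) and Cnot3KO (vertical axis), with 1 point per gene for the 10 genes, 82 other pathway genes and 16 clock genes. The 10 genes lie right of 0, all but Elovl3 also above 0, and the clock genes spread from Dbp at the lower left to Arntl at the upper right.

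Genes that respond to fasting were read as well. Of 11 measured, 1 rose: Pdk4, which blocks the use of pyruvate for acetyl-CoA, was at 3.97 and 4.46 in Control and at 7.74 and 6.95 in Cnot3KO (3.13 ± 0.32, limma adjusted p = 0.00805). On the brightest probe sets none fell in limma. At an unadjusted p under 0.05, 2 were lower and 2 higher in limma, and 0 and 1 by the methods' t-test. Dimmer probe sets of Pck1 (1 of 3), Angptl4 (1 of 2) and Lpin1 (1 of 2) fell, and 1 of 5 of Ppargc1a rose. Their median difference was -0.44. The paper of the study names Pdk4 and Igfbp1, another of the 11, as known targets of Ccr4-Not. The part of feeding, or of such targeting, was not tested.

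Sex-biased liver genes moved too. Of 8 genes known to be higher in males 6 fell, with a median of -2.97, and these include Hsd3b5 (-8.48 ± 0.43), Slco1a1 (-6.58 ± 0.17) and Serpina4-ps1 (-5.45 ± 0.77). Of 5 genes known to be higher in females 1 rose, Cyp17a1 (4.03 ± 0.83). The Y-linked gene Eif2s3y was at 7.34 to 7.90 on all 4 arrays, and Kdm5d and Uty, also Y-linked, were at 4.50 to 5.18. Xist, the RNA of the inactive X chromosome, was at 1.99 to 2.33, below the array medians of 3.09 to 3.14. By these genes all 4 livers read as male, and the genes were chosen after their values were seen. Elovl3, itself higher in males, fell with the male-biased genes, and the part of that pattern in its fall was not tested.

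Markers of other liver cells differed between the groups as well. The summed intensity of 9 hepatocyte markers was 77118 and 77520 in Control and 71051 and 73852 in Cnot3KO. None of the 9 passed in limma, though 1 was higher and 2 were lower at an unadjusted p under 0.05, and the methods' t-test there called 1 and 3. Biliary markers rose in 5 of 7, with sums of 52.3 to 63.0 in Control and 780 to 1061 in Cnot3KO. Macrophage markers rose in 6 of 10 (2665 to 2731 against 4931 to 5574) and stellate cell markers in 5 of 8 (1045 to 1422 against 2732 to 3575). Erythroid markers fell in 3 of 6 (449 to 484 against 76.6 to 127). None of 8 endothelial markers passed in limma or at an unadjusted p under 0.05, also by the methods' t-test. Of 5 adipocyte markers measured 1 rose, Cidea (1.05 ± 0.18), and their sum was 183 to 214 in Control and 224 to 404 in Cnot3KO. The part of these cells in the lipogenic differences was not tested.

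The pathway around these genes was read from 89 further genes, of which 82 were measured. Of the 82, 12 fell (14.6%) and 11 rose (13.4%), against 4.64% and 12.2% of all genes. The median difference of the 82 was -0.25. Without Control replicate 1 only 3 fell and 3 rose, without Control replicate 2 these were 6 and 5, without Cnot3KO replicate 1 6 and 6, and without Cnot3KO replicate 2 8 and 5.

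Among 17 regulators of lipogenic transcription 2 fell and 1 rose, with a median of -0.45. Mlxipl, which encodes ChREBP, was at 9.87 and 9.57 in Control and at 7.92 and 8.11 in Cnot3KO (-1.71 ± 0.19, limma adjusted p = 0.00923). Rxra, the retinoid X receptor that pairs with liver X receptors, fell (-1.07 ± 0.17, adjusted p = 0.0206) on 1 of its 3 probe sets, and Med15, a Mediator subunit that SREBPs bind, rose (0.97 ± 0.17, adjusted p = 0.0231) on 1 of 3. Of 12 genes for acetyl-CoA and NADPH supply, 2 fell and 2 rose. Pklr, the liver pyruvate kinase, fell by 1.88 ± 0.31 (limma adjusted p = 0.0208) on 2 of 3 probe sets. Idh1, the cytosolic isocitrate dehydrogenase that makes NADPH, fell by 1.39 ± 0.25 (limma adjusted p = 0.0262). Pgd, which makes NADPH in the pentose phosphate pathway, rose by 1.63 ± 0.21 on all 4 of its probe sets, and the mitochondrial malic enzyme gene Me2 rose by 1.10 ± 0.18 on 1 of 4. Me1 and Me2, which encode malic enzymes of different compartments, thus had differences of opposite sign.

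Of 12 genes of acetyl-CoA carboxylase and its control 2 fell and 1 rose. Prkaa2, a catalytic subunit of AMPK, the kinase that switches the carboxylase off, fell by 1.84 ± 0.22 (limma adjusted p = 0.0100), whereas Prkab1, a regulatory subunit, rose by 1.26 ± 0.18 (adjusted p = 0.0155). Cop1, a ubiquitin ligase, fell by 0.89 ± 0.16. Of 9 other desaturases and their electron donors 3 fell and 1 rose. Cyb5b, a cytochrome b5, fell by 2.69 ± 0.45 on 2 of 3 probe sets, Cyb5r3, which reduces cytochrome b5, by 1.01 ± 0.16 on 2 of 4, and Fads1, the delta-5 desaturase, by 1.60 ± 0.32 on both of its probe sets. Scd2 rose by 1.54 ± 0.35 (adjusted p = 0.0479) on 1 of 3.

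Elongation showed differences of both signs. Beside the falls of Elovl3 and Elovl6, 3 of 10 other elongation genes rose and none fell in limma. At an unadjusted p under 0.05, 3 of the 10 others were lower in limma and 1 by the methods' t-test. Over all 16758 genes 2079 and 1574 were lower. Elovl7, an elongase of saturated very long chains, was at 3.48 and 2.48 in Control and at 7.04 and 6.38 in Cnot3KO (3.73 ± 0.40, adjusted p = 0.00861), and it rose on all 6 of its probe sets. Biliary markers rose in the same livers, and their part in this was not tested. Hacd2 and Hacd4, dehydratases of the elongation cycle, rose by 0.98 ± 0.18 and 0.83 ± 0.17, Hacd2 on 1 of 2 probe sets.

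Of 17 genes for acyl-CoA synthesis and glycerolipid assembly 3 rose and 2 fell. Mogat2, a monoacylglycerol acyltransferase best known from intestine, was at 3.70 and 3.78 in Control and at 7.70 and 7.997 in Cnot3KO (4.11 ± 0.18, limma adjusted p = 0.00273). Lpin3, a phosphatidate phosphatase, rose by 1.91 ± 0.28 and Dgat1, which makes triglyceride, by 1.28 ± 0.18 on 1 of 2 probe sets. Slc27a5, a bile acid and fatty acid acyl-CoA synthetase, fell by 1.44 ± 0.18. Of 5 genes of mitochondrial fatty acid synthesis 1 fell, Oxsm (-0.87 ± 0.18) on 1 of 3 probe sets.

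**Figure D4:**
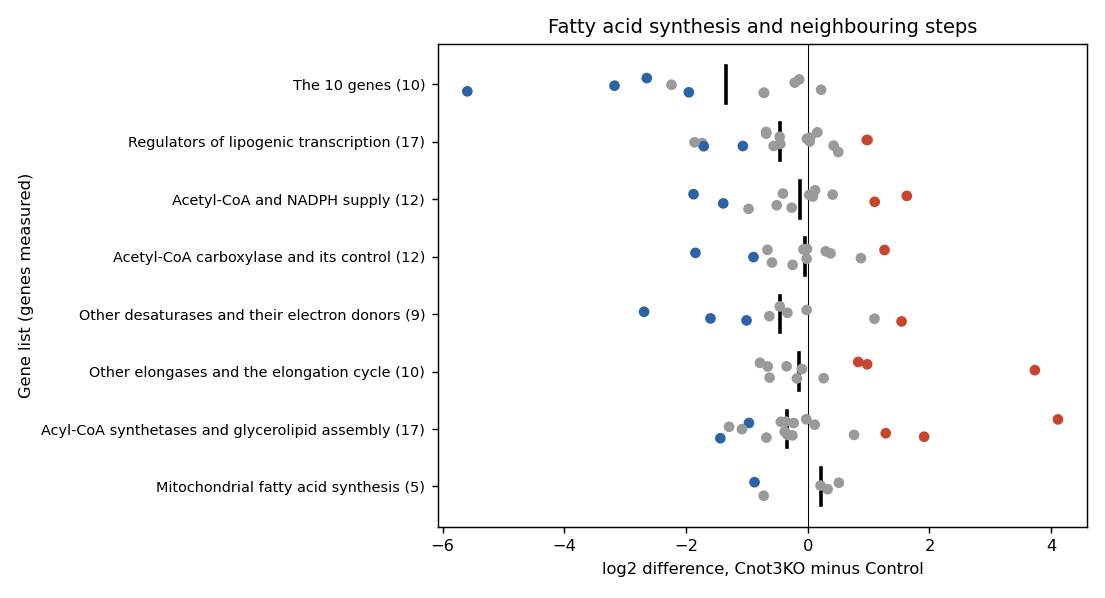
Difference in log2 level, Cnot3KO minus Control (horizontal axis), of each measured gene in the lists around the pathway and in the 10 genes, with 1 row per list, 1 point per gene, blue points for genes that fell, red for genes that rose, grey for the rest and a bar at the median. Elovl3 at -5.59 and Mogat2 at 4.11 are the ends of the range.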

How the data were processed

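Total RNA of 4 mouse livers (2 Control, 2 Cnot3KO) was hybridised to Affymetrix mouse genome arrays. The authors made probe set intensity values by Robust Multi-array Average (RMA, version not stated), and the deposited values are linear, from 1.27 to 16933. They were turned to log2. Whether further arrays were normalized with these is not stated. Probe sets above the 20th percentile of their array on at least 1 array were kept, after the methods' cut-off (38405 of 45037, 85.3%). GEO's platform annotation gave 34945 probe sets 1 gene, 932 several genes and 9160 no gene. A gene was read from its kept probe set of highest mean. Groups were compared in limma 3.58.1 under R 4.3.3 (lmFit, eBayes, 2-sided, 5.40 total degrees of freedom, no block), and the fit was tested on simulated data. Python with numpy, pandas and matplotlib did the rest.

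The 10 genes and all lists were chosen with earlier results of these data known. Named are the 10 genes, Cnot3, up to 4 called genes of each pathway list and up to 3 of each comparison list. Dbp, Arntl, the sex chromosome genes and the thyroid hormone genes were named after their values were seen, as were the clock genes labelled in the plot of gaps. Of the 89 pathway genes 7 have no kept probe set of their own. The same-numbered livers were not taken as pairs, since no label pairs them. Alternatives were other filters, renewed quantile normalization, centring by array medians or by 91 ribosomal probe sets, the replicate number as a block, no _x_at or _s_at probe sets, other priors, the methods' t-test, a 2-fold threshold, averaging each gene's probe sets and each array left out. Promoter sequences are RefSeq's.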

Additional observations from a re-analysis of the deposited data

How the results depend on the processing

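With the methods' t-test and adjusted p, 0 of the 10 lipogenic genes, 0 of their 21 probe sets and 0 of 82 pathway genes in each direction passed. Over the whole array 0 of 16758 genes passed it, so these counts are not particular to the lipogenic genes. At an unadjusted p under 0.05 the t-test called 1 of the 10 genes (Me1) and 4 of the 21 probe sets lower. Over all genes it called 1574 of 16758 lower. With 1 array left out, 2 to 6 of the 10 genes and 3 to 9 probe sets were lower, and 3 to 8 pathway genes were lower and 3 to 6 higher. With each gene's probe sets averaged 6 pathway genes were higher. The paper drew its 4-week array lists at over 2-fold. By that threshold, with no test, 5 of the 10 genes and 8 of the 21 probe sets were lower. Cnot3 stayed at -0.79 but did not pass with the replicate block (adjusted p = 0.0517), a prior that follows intensity (0.0551), the adjusted t-test (0.184) or the 2-fold threshold, and was from -0.87 to -0.71 with 1 array left out. Elovl6 did not pass unfiltered (adjusted p = 0.0592), with median centring (0.0517) or with averaged probe sets (-1.28, 0.0552). Scd1 passed with the 50th percentile filter (0.0451), ribosomal centring (0.0275) and the prior that follows intensity (0.0470), but not with averaged probe sets (-1.16, 0.237) or the methods' t-test (unadjusted p = 0.118, adjusted 0.327).

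The sign turned only in genes that did not pass: Acly was -0.037 with its probe sets averaged and -0.37 to 0.81 with 1 array left out, Acacb -1.25 to 0.82, Elovl5 -0.36 to 0.077 and Srebf1 -1.49 to 0.048. The causes were not tested, other than that leaving out an array leaves fewer samples and a lone array is assumed to vary like the other group. Fasn passed in none of 17 alternatives. With the replicate number as a block, 5 of the 10 genes were lower (Scd1 added, adjusted p = 0.0292), 9 probe sets were lower, and 12 pathway genes were higher and 13 lower. Deviations of same-numbered livers correlated at 0.23 across probe sets. The 2 arrays per group limit every call, and 95% intervals of genes whose livers stand apart span over 2 log2 units.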

Other observations

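Thrsp and Me1 are known to be induced by thyroid hormone, so further genes of that kind were read, chosen after values were seen. Dio1, the deiodinase that activates thyroid hormone in liver and is itself induced by it, was at 9.48 and 9.51 in Control and at 6.14 and 7.15 in Cnot3KO (-2.85 ± 0.34, limma adjusted p = 0.0106). The receptor genes Thrb (-0.81, adjusted p = 0.0640) and Thra (-0.34, adjusted p = 0.305) did not pass, nor did the hormone-responsive genes Klf9 (-0.92, adjusted p = 0.128) and Hr (-0.38, adjusted p = 0.227). Of these 5 genes 1 fell on its brightest probe set. At an unadjusted p under 0.05, 3 were lower in limma and 1 by the methods' t-test, against 2079 and 1574 of all 16758 genes. Both Cnot3KO arrays lay below both Control arrays in all 5, and in 30.3% of all genes. Since the 5 were chosen after their values were seen, these shares cannot be compared. A dimmer probe set of Klf9 (1 of 7) fell, and a dimmer one of Hr (1 of 2) rose. The part of thyroid hormone in the lipogenic differences was not tested.

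Insig1 and Acaca, further genes of the lipogenic pathway, did not pass and were named after their values were seen. Insig1, which holds SREBPs in the endoplasmic reticulum and is itself a target of theirs, was at 8.51 and 9.17 in Control and at 6.05 and 8.16 in Cnot3KO (-1.74 ± 0.69, limma adjusted p = 0.161). As with Srebf1, Cnot3KO replicate 1 was the lowest of the 4 livers. Acaca, the cytosolic carboxylase that makes malonyl-CoA for synthesis, was at 8.27 and 7.68 in Control and at 7.37 and 7.41 in Cnot3KO (-0.59, adjusted p = 0.166).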
